A study of Mus musculus with 11 samples.

Results

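Messenger RNAs of the machinery that makes, fuses and divides mitochondria were followed in sorted β-cells that lack Raptor. The genes were 10 of the 34728 genes and unmatched entries measured: *Ppargc1a*, *Ppargc1b*, *Yy1*, *Nrf1* and *Tfam*, which regulate mitochondrial biogenesis, *Opa1*, *Mfn1* and *Mfn2*, which act in fusion, and *Dnm1l* and *Mtfp1*, which act in fission. They were listed by name, with earlier results of these data known, and all 10 were found in the deposited table. β-cells were sorted by GFP from 8-week-old male mice of the strain C57BL/6 x 129SV, and poly-A RNA was sequenced in 11 libraries. In every group GFP at the *Rosa26* locus was switched on by RIP-Cre, in which the rat insulin promoter drives the recombinase. The WT group (3 libraries) carried intact *Raptor*. The diabetic βRapKOGFP group (4 libraries) had lost *Raptor* in the cells that expressed RIP-Cre and is labelled BetaRapKOGFP-/- without insulin pellet. The euglycemic βRapKOGFP group (4 libraries) had the same deletion and is labelled as carrying an insulin pellet, which was given for 4 weeks from 4 weeks of age. Raptor is the scaffold subunit of the nutrient-sensing kinase complex mTORC1. Since the insulin promoter drives both the deletion and the label, a cell that had expressed RIP-Cre and changed its identity afterwards would still be sorted. Labels do not say whether the libraries of a group came from separate mice, so the p-values measure the spread between these libraries, which may in part be technical.

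PGC-1α, the product of *Ppargc1a*, is a transcriptional coactivator that binds nuclear receptors and nuclear respiratory factors and raises the transcription of nuclear genes for mitochondrial proteins. NRF1 is one of these factors and activates *Tfam*, whose product packages mitochondrial DNA and starts its transcription, while YY1 has been described as a factor through which mTORC1 and PGC-1α act on mitochondrial genes. Mitochondria also join and divide: mitofusins tether and fuse the outer membranes, OPA1 fuses the inner membranes and shapes the cristae, DRP1 constricts the organelle, and MTFP1 promotes division. In β-cells, mitochondrial oxidation of glucose supplies the ATP that closes potassium channels and triggers insulin release.

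*Rptor*, the targeted gene, was between 0.948 and 1.79 FPKM in WT, between 0.485 and 0.937 FPKM in diabetic and between 0.423 and 0.623 FPKM in euglycemic libraries, with no overlap of the mutant libraries and WT. FPKM is a fragment count corrected for transcript length and library size. The depth inferred from the values was 9496764 to 16643799 fragments per library, at which 1 fragment on a transcript of 1 kb equals 0.0601 to 0.105 FPKM. The summed FPKM of 8 β-cell markers was 156520 to 190541 in WT, 137722 to 206198 in diabetic and 116568 to 201843 in euglycemic libraries, a sum that the most abundant markers dominate. Gene by gene, 5 of the 8 were lower than in WT in diabetic (median log2 difference −0.49) and 7 of the 8 in euglycemic libraries (median −0.54), and 1, *Slc2a2*, passed in each. Markers of other cells also differed between the groups. Sums of 12 acinar markers were 4.22 to 42.4 FPKM in WT but 100 FPKM or more in 5 mutant libraries, namely diabetic replicates 1 to 3 and euglycemic replicates 1 and 4. Sums of the 6 α-cell, 3 δ-cell and 2 PP-cell markers were higher in every mutant library than in every WT library. Sums of 9 endothelial markers were 7.67 to 49.4 FPKM in diabetic libraries and at most 2.43 FPKM in all others, and 4 of the 9 were at 0 throughout WT. Sums of 7 duct markers were 178 to 298 FPKM in WT, 219 to 317 FPKM in diabetic and 320 to 455 FPKM in euglycemic libraries, so the euglycemic libraries lay above all others. In bulk RNA of this kind, fewer cells of a type and less RNA per cell cannot be told apart.

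**Figure D1:**
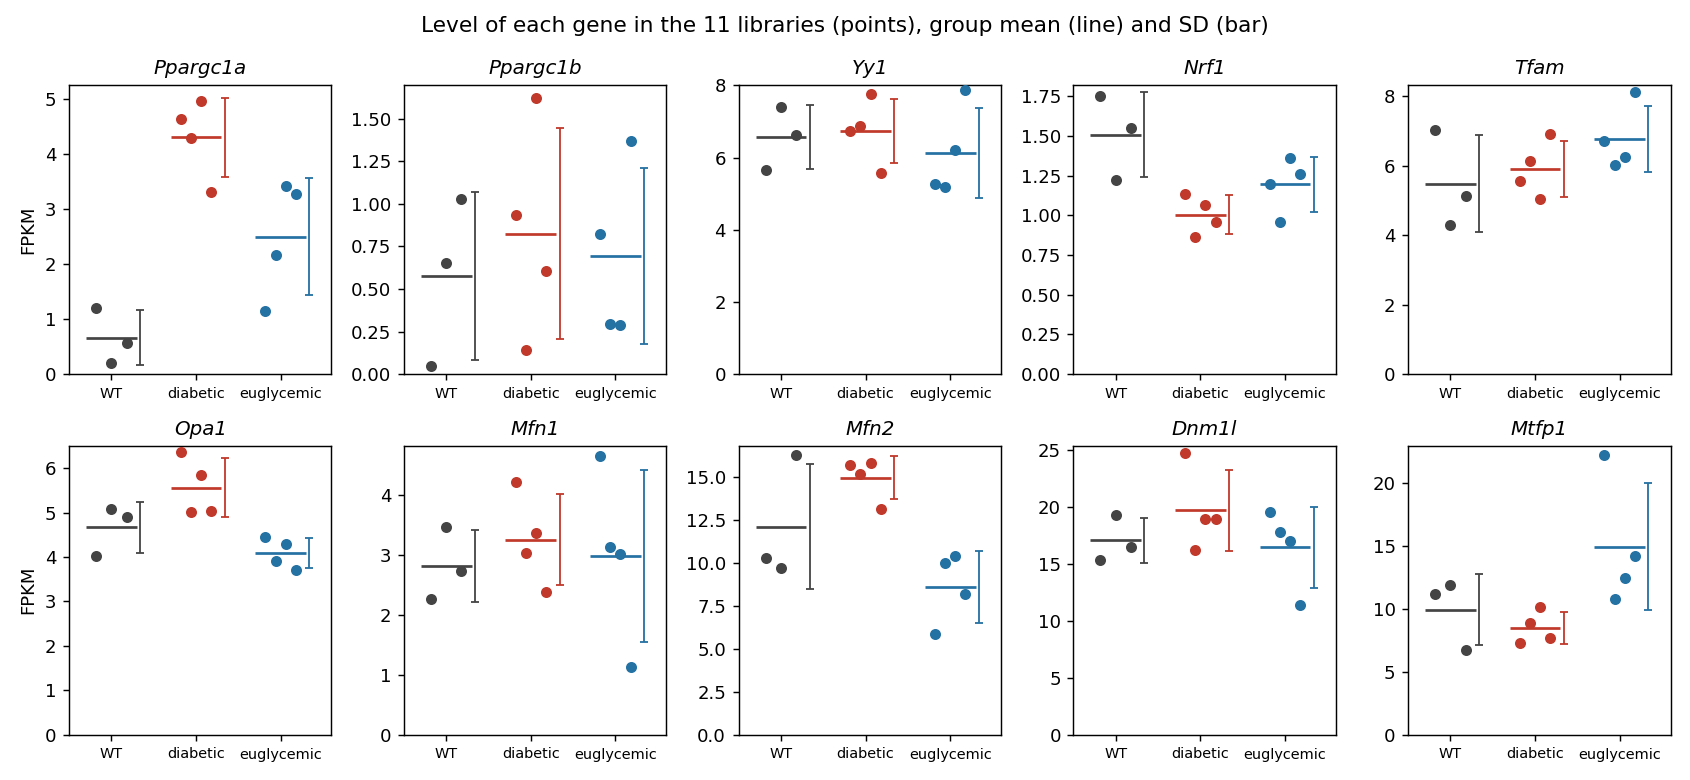
FPKM of each of the 10 genes in every library, with points for libraries, a line for the group mean and a bar for the SD (WT n = 3, diabetic βRapKOGFP n = 4, euglycemic βRapKOGFP n = 4). *Ppargc1a* lies between 3.32 and 4.97 FPKM in the diabetic libraries, above every WT library, while *Yy1*, *Mfn1* and *Dnm1l* overlap in all groups.

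The coactivator gene *Ppargc1a* was the member that differed most from WT. The gene spans 51454250 to 51567726 on the minus strand of chromosome 5 (build GRCm38, mm10). Its level was 1.20, 0.210 and 0.570 FPKM in the 3 WT libraries, 4.64, 4.30, 4.97 and 3.32 FPKM in the diabetic libraries, and 1.14, 2.16, 3.42 and 3.28 FPKM in the euglycemic libraries. All diabetic libraries lay above all WT libraries, whereas euglycemic replicate 1 lay just below the highest WT library and the other euglycemic libraries lay above it. Mean levels were 0.661 ± 0.502 FPKM (SD, n = 3) in WT, 4.31 ± 0.713 FPKM (SD, n = 4) in diabetic and 2.50 ± 1.07 FPKM (SD, n = 4) in euglycemic libraries, ratios to WT of 6.52 and 3.79. On the log2(FPKM + 1) scale, which understates the change of genes with low values, *Ppargc1a* rose by 1.71 in diabetic βRapKOGFP (95% interval 1.11 to 2.31, limma adjusted p = 0.0140). In euglycemic βRapKOGFP the difference from WT was 1.06 (0.46 to 1.66, adjusted p = 0.137) and did not pass. The difference between both mutant groups, which is also the test of whether the change from WT depended on the treatment, was 0.65 (0.09 to 1.20, adjusted p = 0.192) and did not pass either. When both mutant groups were pooled, *Ppargc1a* rose by 1.39 (0.85 to 1.92, adjusted p = 0.0186).

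The level behind these values was low, and the call was close to its threshold. At the inferred depth, *Ppargc1a* rested on about 16 to 109 fragments in WT, 272 to 452 in diabetic and 125 to 339 in euglycemic libraries. Only WT replicate 1 reached 1 FPKM among the WT libraries, so the gene passed the filter on low values (at least 1 FPKM in at least 3 libraries) through the mutant groups. The call in diabetic libraries was lost without WT replicate 2 (adjusted p = 0.0760), without WT replicate 3 (adjusted p = 0.0680), without diabetic replicate 3 (adjusted p = 0.0514) and when all genes above 0 were tested (adjusted p = 0.0780), with differences of 1.503 to 1.71. Leaving out WT replicate 1 brought the euglycemic difference to 1.29 with an adjusted p of 0.0359. The call for both mutant groups together was lost without WT replicate 2 (adjusted p = 0.152) or WT replicate 3 (adjusted p = 0.119).

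*Ppargc1a* is set here beside the marker sums of single libraries. Diabetic replicate 4 and euglycemic replicates 2 and 3 had acinar sums of 23.5, 19.0 and 18.04 FPKM, below the 42.4 FPKM of WT replicate 3, and *Ppargc1a* levels of 3.32, 2.16 and 3.42 FPKM, all above the highest WT library. In the same order, these mutant libraries had α-cell sums of 14718, 8816 and 23767 FPKM (WT at most 2438 FPKM). Their δ-cell sums were 12262, 13953 and 12047 FPKM (WT at most 2514 FPKM). Their PP-cell sums were 12980, 6786 and 14238 FPKM (WT at most 1107 FPKM). Diabetic replicate 4 had the lowest *Ppargc1a* level of its group. With the mean log2 level of the acinar markers as a covariate the diabetic difference was 1.66 (adjusted p = 0.0668), and with the 5 acinar-rich libraries left out, where 1 diabetic library remained and was taken to vary like the others, it was 1.42 (adjusted p = 0.290). The parts of endothelial, duct, α-, δ- and PP-cell marker RNA in the difference were not tested.

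**Figure D2:**
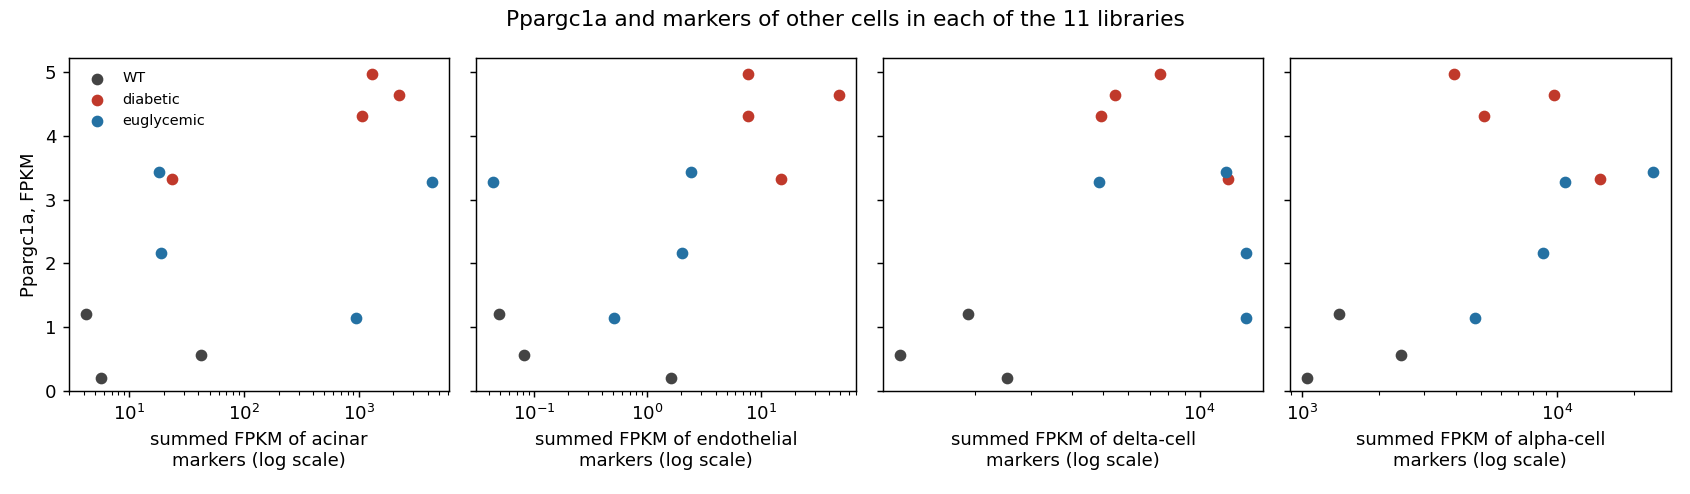
*Ppargc1a* (FPKM, linear axis) against the summed FPKM of acinar, endothelial, δ-cell and α-cell markers (log axes), with 1 point per library in each panel. Diabetic replicate 4 and euglycemic replicates 2 and 3 combine acinar sums of 18.04 to 23.5 FPKM with *Ppargc1a* levels above the WT libraries, and the δ-cell and α-cell sums of all mutant libraries lie to the right of all WT libraries.

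Promoter sequences of RefSeq (GRCm38.p6) were taken for 9 of the 10 genes, and the remaining gene was left out of the search. *Opa1* and *Mfn2* were higher in every diabetic than in every euglycemic library. For these and for *Ppargc1a*, the gene that passed, 250 bases before the start site are shown. Each reads 5′ to 3′ on the strand of the gene, with motif matches in capitals. The windows are chr5:51567726-51567975 (minus) for *Ppargc1a*, chr16:29579084-29579333 (plus) for *Opa1* and chr4:147904910-147905159 (minus) for the first of the 3 starts of *Mfn2*.
Ppargc1a: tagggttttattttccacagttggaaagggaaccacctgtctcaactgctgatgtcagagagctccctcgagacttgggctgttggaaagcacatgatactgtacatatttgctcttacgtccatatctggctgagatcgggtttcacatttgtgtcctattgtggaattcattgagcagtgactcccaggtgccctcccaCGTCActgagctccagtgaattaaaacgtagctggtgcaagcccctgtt
Opa1: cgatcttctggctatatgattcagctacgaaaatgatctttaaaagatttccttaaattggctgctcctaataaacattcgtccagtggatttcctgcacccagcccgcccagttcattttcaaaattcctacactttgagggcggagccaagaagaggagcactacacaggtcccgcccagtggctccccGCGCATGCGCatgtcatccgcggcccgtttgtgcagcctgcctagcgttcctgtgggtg
Mfn2: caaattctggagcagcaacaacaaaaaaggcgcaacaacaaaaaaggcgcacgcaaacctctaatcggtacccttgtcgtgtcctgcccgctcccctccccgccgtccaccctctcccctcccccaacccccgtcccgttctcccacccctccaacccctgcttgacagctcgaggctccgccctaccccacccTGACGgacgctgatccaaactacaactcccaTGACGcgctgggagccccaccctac

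Both strands of 300-base windows (250 before to 50 after the start) were searched for 6 motifs of factors known to act upstream or downstream of PGC-1. The cAMP response element half-site TGACG, found in 20.81% of all 32851 windows, lay 49 bases before the start of *Ppargc1a*, and 25 and 56 bases before the first start of *Mfn2*. That start of *Ppargc1a* lies at the upstream end of the annotated gene, and no other start of it was searched. The NRF1 motif (GCGC, any base, then TGCGC), found in 4.6% of windows, lay 59 bases before the start of *Opa1* and in no other window of the members. The GABP motif CCGGAAGT (3.89% of windows) was in the windows of *Tfam*, where it lay 47 bases before the start, and *Mfn1*. The YY1 motif AANATGGC (6.05% of windows) was in that of *Mfn1*, which also held the half-site. The full response element TGACGTCA (1.79% of windows), which contains the half-site, and the ERR motif TCAAGGTCA (0.42% of windows) were in none of the members' windows. Those windows leave out *Ppargc1b* and any other start of *Ppargc1a*. A match shows only that these letters are present.

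*Ppargc1b* encodes PGC-1β, a second coactivator of the same family. It was near or below 1 FPKM in nearly all libraries, with 0.0499 to 1.03 FPKM in WT, 0.140 to 1.62 FPKM in diabetic and 0.289 to 1.37 FPKM in euglycemic libraries. The 3 groups overlapped, and the gene entered the test because exactly 3 libraries, 1 from each group, reached 1 FPKM. Its difference from WT was 0.20 in diabetic (95% interval −0.50 to 0.89, limma adjusted p = 0.868) and 0.11 in euglycemic βRapKOGFP (−0.59 to 0.80, adjusted p = 0.903). These intervals are wide, and with this spread between libraries neither a moderate rise nor a moderate fall of *Ppargc1b* was detectable. With acinar markers as a covariate both differences turned negative, to −0.19 and −0.17.

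The transcription factors downstream of the coactivators did not pass in any comparison. *Nrf1* (chromosome 6 from 30047988 to 30153458) measured 1.75, 1.22 and 1.55 FPKM in WT, 1.14, 0.861, 1.07 and 0.957 FPKM in diabetic, and 1.20, 0.960, 1.36 and 1.26 FPKM in euglycemic libraries. No diabetic library reached the lowest WT library, and all 8 mutant libraries lay below the WT mean. The ratio of means to WT was 0.666 in diabetic and 0.793 in euglycemic libraries, but the log2 difference of −0.32 in the diabetic group (95% interval −0.69 to 0.05) had a limma adjusted p of 0.496.

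*Tfam* (chromosome 10 from 71225464 to 71238280) measured 7.01, 4.29 and 5.14 FPKM in WT, 5.54, 6.12, 5.04 and 6.91 FPKM in diabetic, and 6.71, 6.01, 6.25 and 8.12 FPKM in euglycemic libraries. All euglycemic libraries exceeded the WT mean, yet WT replicate 1 was higher than 3 of them. The differences from WT were 0.11 (95% interval −0.32 to 0.53, limma adjusted p = 0.884) in diabetic and 0.28 (−0.15 to 0.70, adjusted p = 0.543) in euglycemic βRapKOGFP. *Yy1* (chromosome 12 from 108792973 to 108820148), the zinc finger factor, had means of 6.56 ± 0.885 FPKM (SD, n = 3) in WT, 6.74 ± 0.897 FPKM (SD, n = 4) in diabetic and 6.13 ± 1.25 FPKM (SD, n = 4) in euglycemic libraries. Its ranges overlapped in all groups, with differences from WT of 0.03 (−0.38 to 0.45) and −0.09 (−0.51 to 0.32).

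No fusion gene passed in any comparison, and the largest differences of each lay between the mutant groups. *Mfn2* encodes a mitofusin that also tethers mitochondria to the endoplasmic reticulum, and lies on chromosome 4 from 147873599 to 147904704. It measured 10.3, 9.72 and 16.3 FPKM in WT, 15.7, 15.2, 15.8 and 13.2 FPKM in diabetic, and 5.86, 10.02, 10.4 and 8.18 FPKM in euglycemic libraries. Every diabetic library was above the WT mean of 12.1 FPKM and every euglycemic library below it, while WT replicate 3 was as high as the diabetic libraries. The diabetic minus euglycemic difference was 0.76 (95% interval 0.30 to 1.21, unadjusted p = 0.00325 and adjusted p = 0.126 in limma). Neither difference from WT passed, with 0.32 (−0.18 to 0.81) in diabetic and −0.44 (−0.93 to 0.05) in euglycemic βRapKOGFP. These differences depended on single WT libraries: without WT replicate 2 they were 0.19 and −0.57, and without WT replicate 3 they were 0.53 and −0.22. Without the 5 acinar-rich libraries, which leaves 1 diabetic and 2 euglycemic libraries and takes the lone one to vary like the others, the diabetic minus euglycemic difference was 0.34 (adjusted p = 0.873), and with each single library left out it was 0.60 to 0.85.

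*Opa1* (chromosome 16 from 29579334 to 29654884), which fuses the inner membrane, followed the same order at a smaller size. Its levels were 4.01, 5.09 and 4.90 FPKM in WT, 6.37, 5.01, 5.84 and 5.03 FPKM in diabetic, and 4.45, 3.90, 4.29 and 3.72 FPKM in euglycemic libraries. Diabetic libraries all lay above euglycemic ones, and both groups overlapped with WT. Between the mutant groups it differed by 0.36 (95% interval 0.02 to 0.70, unadjusted p = 0.0379 and adjusted p = 0.218 in limma), with 0.21 (−0.16 to 0.58) for diabetic and −0.15 (−0.52 to 0.22) for euglycemic libraries against WT. *Mfn1* (chromosome 3 from 32529465 to 32579239), the other mitofusin, varied most among the fusion genes in the mutant groups relative to its mean, at 2.27 to 3.46 FPKM in WT, 2.39 to 4.22 FPKM in diabetic and 1.13 to 4.65 FPKM in euglycemic libraries. Its differences from WT were 0.15 (−0.48 to 0.77) and −0.01 (−0.64 to 0.61).

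Neither fission gene passed, and their levels were ordered differently across the groups. *Dnm1l* encodes the dynamin-related GTPase DRP1 and lies on chromosome 16 from 16312230 to 16358959. It measured 15.4 to 19.3 FPKM in WT, 16.2 to 24.7 FPKM in diabetic and 11.4 to 19.6 FPKM in euglycemic libraries, which overlap. Its differences from WT were 0.19 (95% interval −0.27 to 0.65, limma adjusted p = 0.802) and −0.07 (−0.53 to 0.39, adjusted p = 0.905). *Gm49521* overlaps 4.67% of its exon bases on the opposite strand, and no source used here states that strand was counted.

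*Mtfp1* (chromosome 11 from 4091480 to 4095445) encodes an inner membrane protein whose translation is known to depend on mTORC1. Its mRNA measured 11.2, 11.9 and 6.77 FPKM in WT, 7.30, 8.87, 10.1 and 7.73 FPKM in diabetic, and 22.2, 10.8, 12.5 and 14.2 FPKM in euglycemic libraries. Every euglycemic library was above every diabetic library and above the WT mean of 9.96 FPKM, although 2 of the WT libraries were higher than the lowest euglycemic one. The diabetic minus euglycemic difference was −0.71 (95% interval −1.22 to −0.20, unadjusted p = 0.0103 and adjusted p = 0.154 in limma). Against WT it was 0.53 (−0.02 to 1.08, adjusted p = 0.381) in euglycemic and −0.18 (−0.73 to 0.37, adjusted p = 0.853) in diabetic βRapKOGFP. Without WT replicate 2 these were 0.66 and −0.042, and without WT replicate 3 they were 0.30 and −0.41.

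**Figure D3:**
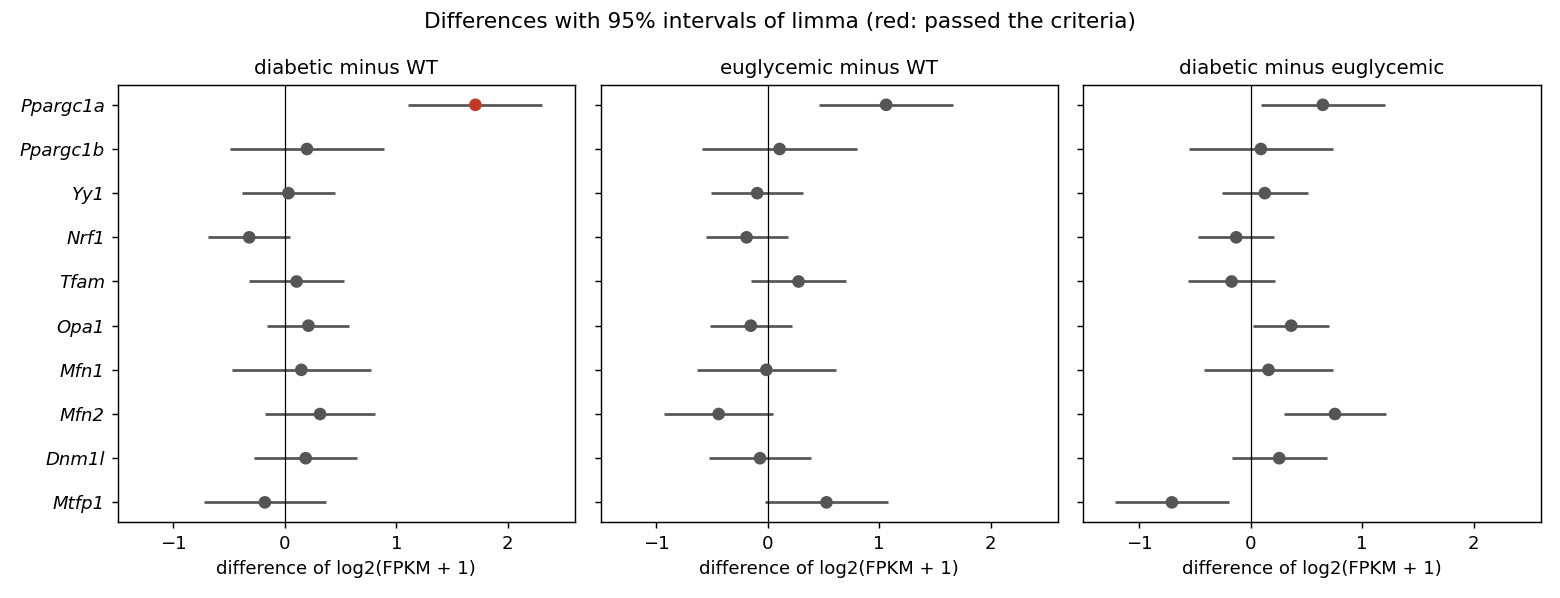
Differences of log2(FPKM + 1) with 95% intervals from limma for the 10 genes, in diabetic minus WT, euglycemic minus WT and diabetic minus euglycemic libraries, with red points for those that passed. *Ppargc1a* passes at 1.71 in diabetic minus WT. In diabetic minus euglycemic, *Mfn2* at 0.76, *Mtfp1* at −0.71, *Ppargc1a* at 0.65 and *Opa1* at 0.36 have intervals clear of 0 without passing. The same holds for *Ppargc1a* at 1.06 in euglycemic minus WT.

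Counted over the 10 genes, all of which were tested, 1 passed in diabetic against WT, where 109 of all 11251 genes tested did (0.969%). None passed in euglycemic against WT, where 62 genes did (0.551%), or between the mutant groups, where 1 gene did (0.00889%). With both mutant groups together 1 of the 10 passed, beside 118 genes in all (1.05%). With 1 library left out, the genes that passed numbered 23 (without WT replicate 2) to 209 (without euglycemic replicate 4) in diabetic against WT, 10 (without WT replicate 3) to 532 (without WT replicate 1) in euglycemic against WT, 0 to 380 (without WT replicate 1) between the mutant groups and 28 (without WT replicate 3) to 179 (without euglycemic replicate 4) for both groups together. At an unadjusted limma p of at most 0.05 there was 1 of the 10 in diabetic against WT (11.9% of all genes), 1 in euglycemic against WT (13.9%), 4 between the mutant groups (20.6%) and 1 for both groups together (11.3%). The single member in the first, second and last of these was *Ppargc1a*, and the 4 were *Ppargc1a*, *Opa1*, *Mfn2* and *Mtfp1*. Libraries did not overlap for 2 of the 10 between diabetic and WT (*Ppargc1a* and *Nrf1*, 13.5% of all genes), for 0 between euglycemic and WT (10.9%) and for 3 between the mutant groups (*Opa1*, *Mfn2* and *Mtfp1*, 14.3%). Apart from *Ppargc1a*, these shares are read against 10 genes only, and the differences from WT share the same 3 WT libraries. The median difference over the 10 genes was 0.17 in diabetic and −0.04 in euglycemic against WT, and 0.14 between the mutant groups, with medians of 0.0063, −0.0100 and 0.0088 over all genes tested. Rescaling each library to TPM moved the median of all genes between the mutant groups to 0.14 and left the direction of every member as it was.

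FPKM values can be compared between genes, since they are per length. In WT the order of the means was *Dnm1l*, *Mfn2*, *Mtfp1*, *Yy1*, *Tfam*, *Opa1*, *Mfn1*, *Nrf1*, *Ppargc1a* and *Ppargc1b*, from 17.1 to 0.578 FPKM. Of the neighbours in that order, *Opa1* and *Mfn1*, *Mfn1* and *Nrf1*, and *Nrf1* and *Ppargc1a* had libraries that did not overlap, and the rest did overlap. *Ppargc1a* stood at place 9 in WT, 7 in diabetic libraries, where it was above *Mfn1*, and 8 in euglycemic libraries. *Mfn2* was above *Mtfp1* in all diabetic libraries, and *Mtfp1* was above *Mfn2* in all euglycemic ones.

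Among the 3 genes with levels most like those of *Ppargc1a* over the 11 libraries, by the Pearson correlation of log2(FPKM + 1), were *Zbtb21* (r = 0.884) and *Tmem43* (r = 0.881). The 11 points share the differences between groups and in marker RNA described above. *Zbtb21* ranged from 3.004 to 4.72 FPKM in WT, 8.81 to 11.02 FPKM in diabetic and 2.25 to 7.45 FPKM in euglycemic libraries. As with *Ppargc1a*, euglycemic replicate 1 had the lowest level among the mutant libraries in both of these genes.

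Around the 10 genes, 7 lists of related genes were counted in the same fit. Of the coactivators and transcription factors of the PGC-1 and NRF network, 15 of 20 were expressed enough to be tested and none passed. *Nrip1*, a corepressor known to oppose PGC-1α, had a difference of 0.64 in diabetic against WT (adjusted p = 0.343), and *Prkaa1*, a catalytic subunit of the energy sensor AMPK, had differences of −0.44 (adjusted p = 0.417) and −0.71 in euglycemic against WT (adjusted p = 0.158). The median over the 15 was −0.03 in diabetic and −0.20 in euglycemic against WT, and 13 of the 15 were higher in diabetic than in euglycemic libraries with a median difference of 0.27. *Rb1*, the retinoblastoma gene, stood at −0.79 in euglycemic against WT (adjusted p = 0.290), and at −0.98 to −0.47 with 1 library left out.

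No gene passed among the 19 for mitochondrial DNA transcription and maintenance, all of which were tested, and medians against WT were 0.01 in diabetic and 0.23 in euglycemic libraries. The topoisomerase gene *Top1mt* had differences of 0.94 (adjusted p = 0.406) and 0.91 (adjusted p = 0.3605), and the exonuclease gene *Mgme1* of 0.44 (adjusted p = 0.524) and 0.64 (adjusted p = 0.283). With 1 library left out, those of *Mgme1* were 0.24 to 0.60 in diabetic and 0.43 to 0.82 in euglycemic against WT. *Mterf1b* was at 0.52 in euglycemic libraries (adjusted p = 0.346) but shares 61.3% of its 50-base stretches with other genes, so its reads are uncertain. Among the other fusion and inner membrane genes 13 of 14 were tested and none passed, with medians of −0.07 and 0.15. The scaffold gene *Phb2* stood at 0.52 in euglycemic against WT (adjusted p = 0.301) and *Yme1l1*, a protease that cuts OPA1, at 0.34 in diabetic against WT (adjusted p = 0.518). *Phb* (0.49 in euglycemic, adjusted p = 0.304) shares 30.1% of its 50-base stretches with other genes, and *Miga2* was at 0.25 in diabetic libraries (adjusted p = 0.640).

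Of the fission list 12 of 14 and of the mitophagy list 10 of 12 were tested, and none passed in either, with medians of −0.07 and 0.15 and of 0.01 and 0.11 in diabetic and euglycemic against WT. *Mief1*, an adaptor that recruits DRP1 to the outer membrane, had a difference of 0.84 in diabetic against WT (adjusted p = 0.317) and of 0.93 between diabetic and euglycemic libraries (adjusted p = 0.145). The first of these was 0.25 to 1.08 over the alternatives run. *Dnm2*, another dynamin, was at −0.46 in euglycemic libraries (adjusted p = 0.274), and the ubiquitin ligase gene *March5* at 0.31 in diabetic (adjusted p = 0.653) and 0.41 in euglycemic libraries (adjusted p = 0.449), which became 0.083 and 0.18 without WT replicate 2 and 0.60 and 0.69 without WT replicate 1. In the mitophagy list *Tbc1d15*, a Rab7 regulator, had 0.71 in diabetic against WT (adjusted p = 0.184), *Optn* −0.35 (adjusted p = 0.590), the kinase gene *Pink1* −0.57 in euglycemic (adjusted p = 0.375) and *Bnip3l* 0.46 (adjusted p = 0.458), the last with 20.8% of its 50-base stretches shared. With 1 library left out, the euglycemic differences from WT were −0.72 to −0.29 for *Pink1* and 0.28 to 0.57 for *Bnip3l*.

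The genes of mitochondrial mass and import, all 17 tested, had opposite medians against WT, −0.14 in diabetic (14 lower) and 0.17 in euglycemic libraries (12 higher), with no call in either. Between the mutant groups 15 of 17 were lower in diabetic libraries, 8 of them at an unadjusted p of at most 0.05 (20.6% of all genes) and none after adjustment, with a median of −0.42. *Slc25a4*, the ADP/ATP carrier, had −0.70 in diabetic against WT (adjusted p = 0.164) and −0.81 against euglycemic libraries (adjusted p = 0.122). *Vdac1*, the outer membrane channel, had −0.52 in diabetic against WT (adjusted p = 0.408). *Cycs* and *Hspe1* had 0.49 (adjusted p = 0.346) and 0.45 (adjusted p = 0.381) in euglycemic against WT, with 25.9% and 18.4% of their 50-base stretches shared with other genes.

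All 13 mRNAs of the mitochondrial genome were lower in diabetic than in WT libraries, by a median of −0.82, and 12 of them had an unadjusted p of at most 0.05 (11.9% of all genes). These mRNAs come from 1 genome and were measured in the same libraries, so they are not 13 independent observations. Only *mt-Nd2*, a subunit of complex I, passed after adjustment, with −0.98 (adjusted p = 0.0449 in limma), a call that was lost in 18 of 21 alternatives. These were the fits that left out any single library other than euglycemic replicate 4 and 8 of the 10 other settings, with adjusted p up to 0.647 when the acinar-rich libraries were left out. The difference itself was between −1.13 and −0.81 over the 21. In euglycemic libraries the median was −0.24, none of the 13 passed and 1, *mt-Nd5*, had an unadjusted p of at most 0.05 (13.9% of all genes), with −0.49 (adjusted p = 0.297) beside −0.88 in diabetic libraries (adjusted p = 0.0579). *mt-Nd4* had −0.37 in euglycemic libraries (adjusted p = 0.490). The reads of several of these mRNAs are uncertain, since 62.2% of the 50-base stretches of *mt-Nd4*, 51.1% of *mt-Co1*, 98.0% of *mt-Nd3*, 98.8% of *mt-Nd4l*, 99.5% of *mt-Atp6*, 99.9% of *mt-Co3* and all of those of *mt-Co2* also occur in other genes, against at most 8.19% in the remaining 6. Poly-A selected RNA was sequenced, so these values count the polyadenylated mRNAs of mitochondria and not mitochondrial DNA.

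**Figure D4:**
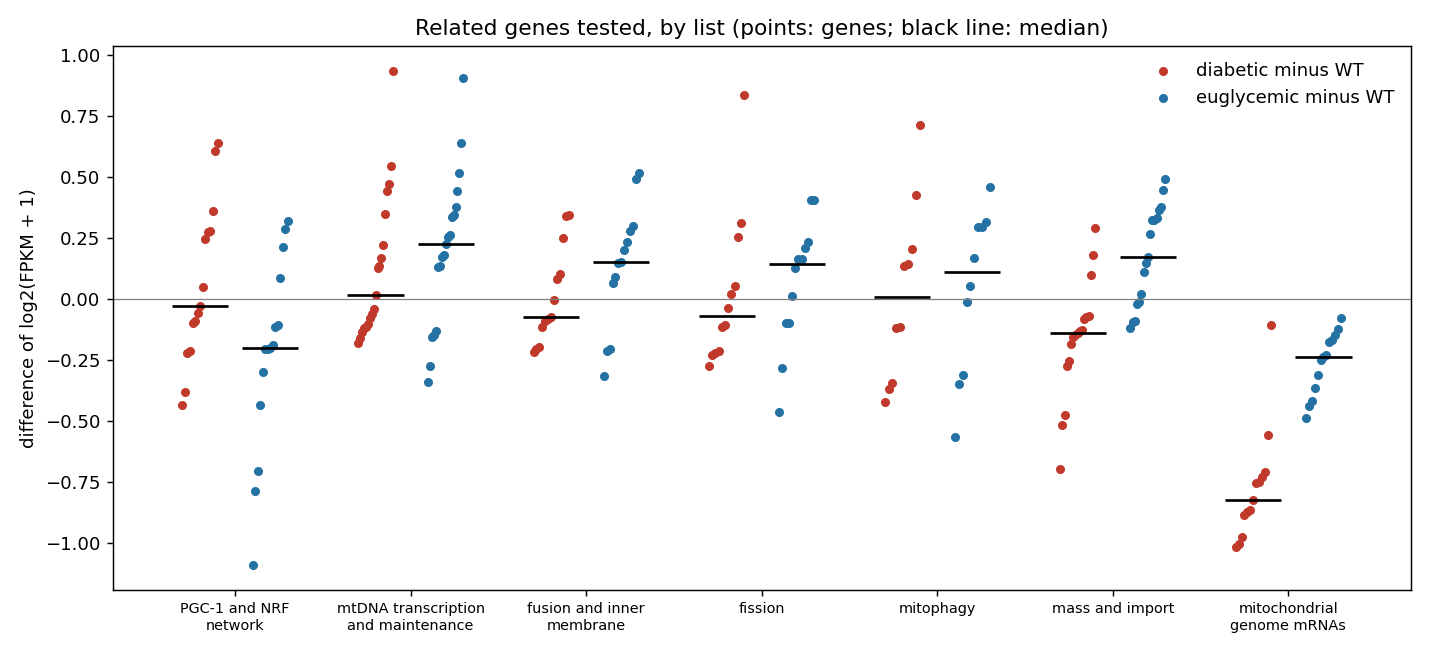
Differences of log2(FPKM + 1) from WT for each tested gene of the 7 lists of related genes (points) with the list median (black line), in diabetic (red) and euglycemic (blue) libraries. The mRNAs of the mitochondrial genome lie below 0 in both groups, with medians of −0.82 and −0.24, while the genes of mass and import have medians of −0.14 and 0.17.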

How the data were processed

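RNA-seq of sorted GFP+ β-cells gave 11 libraries (3 WT, 4 diabetic and 4 euglycemic βRapKOGFP). The authors deposited FPKM values by gene for each library. Their paper names Tophat and Cufflinks on mm10, whereas the submitters' processing notes list HISAT2 2.0.4, StringTie 1.3.0 and edgeR, and the table does not say which route gave its values. Of 34745 entries, 34267 matched a gene symbol and the other 478 were kept under their own identifiers. Where a symbol was repeated the entry with the highest mean was kept, which dropped 17 and left 34728. The columns labelled KI were read as the insulin-treated libraries.

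Fragment totals are not in the table. Depth was inferred from whole-fragment steps of low values in 4939 genes with a single exon of 500 bases or more (tolerance 0.02, 1 to 20 fragments), where 78.0 to 89.3% of values were whole.

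Values were fitted as log2(FPKM + 1) with limma 3.58.1 in R 4.3.3 (lmFit, eBayes with trend), all 11 libraries in one fit, for 11251 genes with at least 1 FPKM in at least 3 libraries. A gene passed with a Benjamini-Hochberg adjusted p no higher than 0.05 together with a 1.5-fold or larger change. The fit was also run on simulated data in which changes were added only to genes at higher levels than *Ppargc1a*. That run does not bear on genes at low levels. The 10 genes, the marker lists and the lists of related genes were chosen with earlier results of these data known. All 10 genes are named, and from each related list every gene that passed and the 2 genes with the smallest p in each mutant group against WT. Of the 3 genes most correlated with *Ppargc1a*, 2 are also named, and the other is not reported here. Alternatives were no filter, a filter of 0.5 FPKM, pseudocount 0.1, TPM, median-of-ratios scaling, only the groups compared, library weights, the replicate number as a block and leaving out each library. The acinar score as a covariate and leaving out libraries with acinar sums of 100 FPKM or more were chosen after seeing the data. Gene positions are from GENCODE vM21 of GRCm38. Summaries and figures used Python 3.11.15, numpy 2.4.6, pandas 2.3.3 and matplotlib 3.10.9.

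Markers of stellate and fibroblast (7 genes, 0 to 18.7 FPKM in sum over all libraries) and macrophage and leukocyte cells (8 genes, 0.0718 to 65.6 FPKM) were summed as well. The highest sums of both lists were in diabetic replicate 1.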

Additional observations from a re-analysis of the deposited data

How the results depend on the processing

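The direction of the *Ppargc1a* difference held under every alternative run, at 1.42 to 2.75 for diabetic and 0.86 to 1.89 for euglycemic libraries against WT. Its call did not. Against the 1 member called in diabetic against WT and in both mutant groups together, 0 were called in each with no filter, with the replicate block, with the acinar score as a covariate and with the 5 libraries rich in acinar markers left out. Library weights gave 1 member in euglycemic against WT and 2 between the mutant groups (*Ppargc1a* and *Mfn2*). Leaving out each library in turn gave 0 to 1 members in diabetic, in euglycemic and in both mutant groups against WT. The cause was not tested.

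Over all genes, 109 (diabetic against WT), 62 (euglycemic against WT), 1 (between the mutant groups) and 118 (both mutant groups against WT) were called. In the same order the counts were 22, 13, 0 and 23 with no filter, 551, 2287, 1212 and 1116 with library weights, 48, 32, 0 and 49 with the acinar covariate, and 1, 6, 0 and 36 with the acinar-rich libraries left out. A fit of only the groups compared gave 17 genes in euglycemic against WT and 6 between the mutant groups, where pseudocount 0.1, TPM and median-of-ratios scaling each gave 0. Leaving out each library in turn gave 23 to 209, 10 to 532, 0 to 380 and 28 to 179.

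Replicate numbers did not pair the libraries (mean correlation of deviations −0.132 in 10 same-numbered pairs, range −0.368 to 0.212, against 0.0433 in the 30 others). The replicate block gave 45, 20, 0 and 53 genes, and *Ppargc1a* had adjusted p = 0.0560 in diabetic against WT and adjusted p = 0.0739 in both mutant groups against WT in limma. It also reversed the euglycemic differences from WT of *Mfn1* (0.18) and *Dnm1l* (0.015).

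Of 810 values of the members under alternatives, 745 kept direction and side of the threshold, 13 fell below it, 4 passed it and 48 reversed. The reversed ones reached −0.26, for *Mfn1* between the mutant groups, where the main fit gave 0.16. With library weights these were *Yy1* in diabetic against WT (−0.016), *Ppargc1b* (−0.24) and *Mfn1* (0.080) in euglycemic against WT, *Mfn1* between the mutant groups (−0.012), and *Ppargc1b* (−0.046) and *Opa1* (−0.025) in both mutant groups against WT. With the acinar covariate they were *Ppargc1b* (−0.19) and *Yy1* (−0.15) in diabetic, *Ppargc1b* (−0.17) and *Mfn1* (0.033) in euglycemic, *Ppargc1b* between the mutant groups (−0.026), and *Ppargc1b* (−0.18) and *Opa1* (−0.0053) in both together. With the acinar-rich libraries left out they were *Yy1* (−0.19) and *Mfn1* (−0.16) in diabetic, *Mfn1* (0.10) and *Dnm1l* (0.033) in euglycemic, *Yy1* (−0.019), *Tfam* (0.15) and *Mfn1* (−0.26) between the mutant groups, and *Opa1* (−0.027), *Mfn1* (−0.029) and *Mtfp1* (−0.026) in both together, and among related genes *Optn* in diabetic against WT (0.029). For the named related genes 18 values lost a call, all of *mt-Nd2* in diabetic against WT, and 12 gained one. Library weights gave 10 of these 12, for *Prkaa1*, *Rb1*, *Mgme1*, *Phb2*, *Phb*, *March5* and *Cycs* in euglycemic and *Top1mt*, *Tbc1d15* and *mt-Nd5* in diabetic against WT, and *mt-Nd5* also gained it with median-of-ratios scaling and without euglycemic replicate 4.

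Leaving out each library in turn gave ranges that cross 0 for *Ppargc1b* (−0.069 to 0.40), *Yy1* (−0.058 to 0.11) and *Tfam* (−0.030 to 0.27) in diabetic against WT. In euglycemic against WT they were those of *Ppargc1b* (−0.16 to 0.22), *Mfn1* (−0.21 to 0.26) and *Dnm1l* (−0.16 to 0.086), and between the mutant groups those of *Ppargc1b* (−0.023 to 0.30) and *Mfn1* (−0.11 to 0.36). In both mutant groups against WT they were those of *Ppargc1b* (−0.12 to 0.25), *Yy1* (−0.12 to 0.049), *Opa1* (−0.056 to 0.084), *Mfn1* (−0.039 to 0.20), *Mfn2* (−0.19 to 0.15), *Dnm1l* (−0.0089 to 0.15) and *Mtfp1* (−0.057 to 0.31). *Ppargc1b* failed the filter, and has no value, without WT replicate 3, diabetic replicate 3 or euglycemic replicate 4, so its ranges come from 8 fits, nor has it a value at median-of-ratios scaling or with the acinar-rich libraries left out. *Ppargc1b* rested on about 3 to 89 fragments per library, and the part of depth in its spread was not tested.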
